A study of Mus musculus with 8 samples.

Results

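The Slc25 genes encode the mitochondrial carriers, the largest family of solute carriers in mammals, and their messenger levels were compared in the yolk sac of mouse embryos with activated or deleted Notch signaling. A gene was counted as a carrier when an array probe set named it alone and its symbol was Slc25a followed by a number. This took in 44 of 18194 genes, with 93 probe sets, and 36 of the 44 had a mean signal high enough to be tested. Each gene was read from its brightest probe set over all arrays, and 23 of the 44 had more than 1. The 2 erythroid carriers, Slc25a37 and Slc25a38, were set against the 34 other tested carriers in each mutant relative to its own wild type.

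RNA came from yolk sacs at E9.5, with 2 arrays in each of 4 groups, and both models used the Tie2-Cre driver, which acts in endothelial and hematopoietic cells. EC-N1ICD embryos (Tie2 Tg/0; ROSA +/N1ICD, strain C57BL6) express the intracellular domain of NOTCH1 from the Rosa26 locus once Cre has removed a stop cassette, and their wild type was Tie2 0/0; ROSA +/+. EC-Rbpj-KO embryos (Tie2-Cre; Rbpj flox/flox, mixed strain) lose the DNA-binding part of RBPJ, the factor through which Notch acts on genes. The wild type of that set was named as such without a genotype, so whether it carried Cre or a floxed allele is not known. The yolk sac is a mixture of visceral endoderm, endothelium, mesoderm and primitive blood, in which fewer cells of a type and less RNA per cell cannot be told apart. No source used here states that the arrays of a group came from separate embryos or pools. The 2 EC-Rbpj-KO arrays differed in Xist, a female transcript (2005 and 84), and Eif2s3y, a male one (12 and 827). These 2 were thus not repeats of 1 RNA sample. The p-values here cover the array-to-array spread, which may be technical in the other groups.

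Mitochondrial carriers sit in the inner membrane and move substrates between the cytosol and the matrix, among them ADP and ATP, phosphate, citrate, amino acids, nucleotides, cofactors and metal ions. Red cell precursors use them to make heme, since the pathway starts and ends inside the mitochondrion. SLC25A38 is known to import the glycine from which ALAS2 builds the first intermediate. SLC25A37, also called mitoferrin 1, brings in the iron that ferrochelatase inserts last, and loss of SLC25A38 causes anemia in people, as does loss of SLC25A37 in zebrafish and mice. At E9.5 the yolk sac is the site of primitive erythropoiesis.

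Promoter stretches are given for the 3 carriers that passed the test in EC-Rbpj-KO and for the erythroid carrier Slc25a38, because the deleted gene encodes a DNA-binding factor. They are RefSeq sequences of build GRCm38.p6, 5′ to 3′ on the strand of the gene, and end where the annotated gene begins. Capitals mark matches, on either strand, to 3 motifs. GATAA is bound by GATA factors. TGGGAA is the core of the motif that RBPJ binds. CACCC is bound by the erythroid factor KLF1, and none of the 3 contains another.
Slc25a17, chr15:81360766-81361015, minus strand: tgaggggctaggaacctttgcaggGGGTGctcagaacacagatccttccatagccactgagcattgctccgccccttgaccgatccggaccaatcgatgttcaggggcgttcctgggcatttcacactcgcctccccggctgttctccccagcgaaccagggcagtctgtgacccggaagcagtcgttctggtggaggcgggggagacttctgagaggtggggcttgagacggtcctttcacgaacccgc
Slc25a33, chr4:149774268-149774517, minus strand: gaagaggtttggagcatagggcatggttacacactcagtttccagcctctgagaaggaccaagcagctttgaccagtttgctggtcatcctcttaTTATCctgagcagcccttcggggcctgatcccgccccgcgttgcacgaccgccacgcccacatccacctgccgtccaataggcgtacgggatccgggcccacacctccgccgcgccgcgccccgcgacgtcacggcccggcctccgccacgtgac
Slc25a34, chr4:141623892-141624084, minus strand: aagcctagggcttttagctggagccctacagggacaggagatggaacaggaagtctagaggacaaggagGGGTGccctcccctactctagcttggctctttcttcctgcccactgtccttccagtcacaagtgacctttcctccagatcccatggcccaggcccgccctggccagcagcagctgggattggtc
Slc25a38, chr9:120110132-120110376, plus strand: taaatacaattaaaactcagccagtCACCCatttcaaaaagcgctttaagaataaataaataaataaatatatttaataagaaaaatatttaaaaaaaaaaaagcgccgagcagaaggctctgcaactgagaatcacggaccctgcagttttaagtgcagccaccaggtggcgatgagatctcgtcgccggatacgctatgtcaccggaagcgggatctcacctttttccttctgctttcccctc
Over the 250 bases before each start, GATAA occurred in 23% of 27025 promoters, TGGGAA in 21.5% and CACCC in 51.3%. Of the 34 carriers with a promoter in the table, 5 held GATAA, 5 held TGGGAA and 22 held CACCC. Slc25a33 had 1 GATAA match 155 bases before its start. Slc25a17, Slc25a34 and Slc25a38 each had 1 CACCC match. The TGGGAA match of Slc25a34, 33 bases before the listed start, lies inside another transcript model of the gene and is not in the stretch shown. These matches describe the letters of the windows and were not related to the measurements.

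Signals are the linear brightness that the MAS5 software summarizes for a probe set, and a gene passed the test at an adjusted p under 0.05. Rbpj read 470 and 497 in EC-Rbpj-KO, against 984 and 919 for wild type, and whether its probe set lies in the deleted exons was not determined. Xist read 3600 and 3730 in EC-N1ICD yolk sacs and 2005 on EC-Rbpj-KO replicate 1, and 77 to 96 on the other 5 arrays, so female transcripts and genotype cannot be told apart in the EC-N1ICD set. Slc25a5, Slc25a14 and Slc25a53 are X-linked, as is the heme synthesis gene Alas2 described below. Actb had ratios of 3′ to 5′ signal, a measure of RNA integrity, of 1.72 to 2.34, and Gapdh of 2.43 to 4.64, with the top value on EC-Rbpj-KO replicate 1. Replicate 1 of both models also carries a different first number in its sample name from the rest of its set, with no meaning stated.

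Slc25a37 had the lowest fold change of the tested carriers in EC-N1ICD yolk sacs and the second lowest in EC-Rbpj-KO, but did not pass the test in either. Its single probe set gave signals of 281 and 961 in EC-N1ICD yolk sacs, against 1761 and 1390 for wild type. In EC-Rbpj-KO yolk sacs it gave 530 and 788, against 1715 and 1179 for wild type. Both mutant arrays lay below both wild type arrays in each set. The log2 fold change was -1.59 in EC-N1ICD (SE 0.44, 95% interval -2.55 to -0.63, limma p 0.0037, Benjamini-Hochberg adjusted p 0.16). In EC-Rbpj-KO it was -1.14 (SE 0.44, 95% interval -2.10 to -0.18, limma p 0.024, adjusted p 0.17). The fold changes of the 2 models were not shown to differ (limma adjusted p 0.84 for the contrast).

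The 2 EC-N1ICD arrays lay far apart for Slc25a37. Their log2 signals differed by 1.77, against a median difference of 0.129 over the tested carriers, and 0.257% of all tested genes differed by more. Relative to the wild type mean, EC-N1ICD replicate 1 had a log2 signal of -2.48 and replicate 2 one of -0.70. In EC-Rbpj-KO the gap was 0.57, with 13.3% of genes differing by more. Without EC-N1ICD replicate 2 the gene passed the threshold in EC-N1ICD (log2 fold change -2.48, adjusted p 0.0038), and without replicate 1 it did not (-0.70, adjusted p 0.88). Without either EC-N1ICD array the EC-Rbpj-KO value, itself unchanged at -1.14, passed (adjusted p 0.029 each), since the arrays share 1 estimate of the spread. A term for female transcripts can be estimated only from the difference between the 2 EC-Rbpj-KO arrays, 1 of each kind, so it cannot separate sex from genotype in the EC-N1ICD set, while in EC-Rbpj-KO it leaves the value of replicate 2 (-0.85, adjusted p 0.39). The part of female transcripts in the Slc25a37 values was not tested beyond this.

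Slc25a38, the glycine importer of the same pathway, had signals that overlapped with wild type in both models. EC-N1ICD arrays read 452 and 548 for it, against 503 and 413 for wild type. EC-Rbpj-KO arrays read 766 and 817, against 907 and 767 for wild type. The log2 fold change was 0.13 in EC-N1ICD (95% interval -0.27 to 0.52, adjusted p 0.86) and -0.08 in EC-Rbpj-KO (95% interval -0.47 to 0.32, adjusted p 0.86). These intervals leave room for changes of moderate size in either direction. The 2 erythroid carriers thus had separate values, and their joint median below is the midpoint of a low and a near-zero one.

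**Figure D1:**
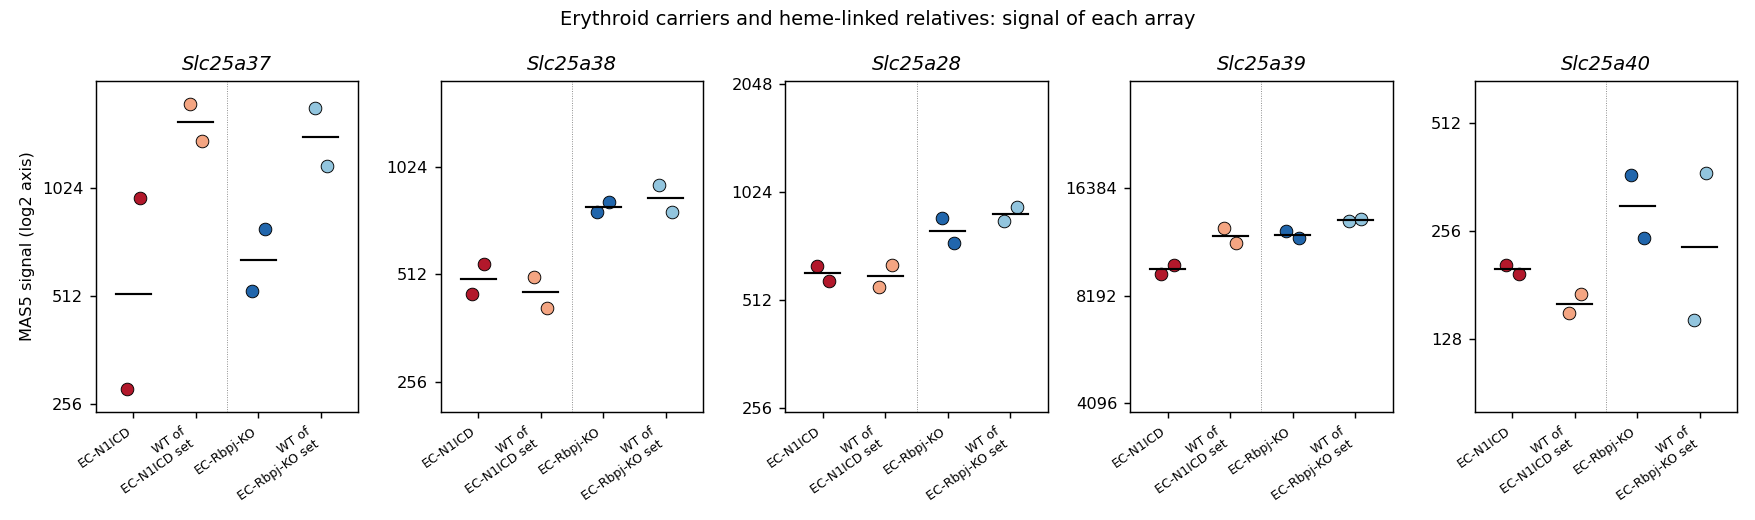
MAS5 signal (log2 axis, each panel spanning its own range) of Slc25a37, Slc25a38 and 3 heme-linked relatives on each of the 8 arrays, with mutants left of their wild types; points are arrays and bars are geometric means. Slc25a37 lay at 281 to 961 in the mutants and at 1179 to 1761 for wild type, whereas Slc25a38 overlapped in both sets.

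Slc25a28, mitoferrin 2, imports iron in cells other than erythroid ones. It read 637 and 579 in EC-N1ICD, against 558 and 643 for wild type, and 865 and 738 in EC-Rbpj-KO yolk sacs, against 853 and 934 for wild type. Its groups overlapped in both sets, with log2 fold changes of 0.02 (95% interval -0.35 to 0.39) and -0.16 (95% interval -0.53 to 0.21).

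Slc25a39, which imports glutathione into mitochondria, had 9426 and 9998 in EC-N1ICD, against 12630 and 11493 for wild type. In EC-Rbpj-KO it had 12417 and 11831, against 13244 and 13367 for wild type. The groups were separate in both sets, but the differences were small, at -0.31 (SE 0.08, limma p 0.0027, adjusted p 0.13) and -0.13 (SE 0.08, adjusted p 0.39) on the log2 scale. Of its 4 other probe sets, 1 was also separate in EC-N1ICD, with a log2 fold change of -0.26, and another in EC-Rbpj-KO, with -0.55. Its brightest probe set has a suffix that marks possible cross-hybridization. Slc25a40, a close paralog, read 206 and 194 in EC-N1ICD, against 151 and 170 for wild type, and 367 and 245 in EC-Rbpj-KO yolk sacs, against 144 and 371 for wild type. Its log2 fold changes were 0.32 (95% interval -0.47 to 1.11) and 0.38 (95% interval -0.42 to 1.17), with overlapping groups in EC-Rbpj-KO.

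No carrier passed the test in EC-N1ICD, where 0.596% of 10913 genes did (0.22% lower and 0.376% higher). At an unadjusted limma p under 0.05, 4 of 36 were lower there, against 5.47% of all genes, and 0 higher, against 6.52%. In EC-Rbpj-KO 2 of 36 carriers fell and 1 rose, against 2.96% of all genes that fell and 2% that rose. At an unadjusted limma p under 0.05, 6 were lower, against 11.6% of all genes, and 2 higher, against 8.36%. None passed for the difference between the models, against 0.266% of all genes, with 6 of 36 at an unadjusted p under 0.05, against 10.8%. In EC-N1ICD both arrays lay below both wild type arrays for 10 of 36 carriers, against 18.9% of all genes, and above for 5, against 23.7%. In EC-Rbpj-KO the counts were 10 below, against 27.5% of all genes, and 6 above, against 23.3%. The median log2 fold change of the carriers was -0.02 in EC-N1ICD yolk sacs and -0.11 in EC-Rbpj-KO, beside 0.01 and -0.02 over all tested genes.

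The median of the 2 erythroid carriers was -0.73 in EC-N1ICD yolk sacs and that of the 34 others -0.02, a difference of -0.71. In EC-Rbpj-KO the medians were -0.61 and -0.11, a difference of -0.50. With 2 genes on 1 side, and 1 of these near 0, the difference reflects Slc25a37. With Slc25a39 counted among the erythroid carriers it was -0.29 in EC-N1ICD yolk sacs and -0.03 in EC-Rbpj-KO. It was -0.19 in EC-N1ICD without EC-N1ICD replicate 1, and dropping EC-Rbpj-KO replicate 1 gave -0.23 in EC-Rbpj-KO.

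**Figure D2:**
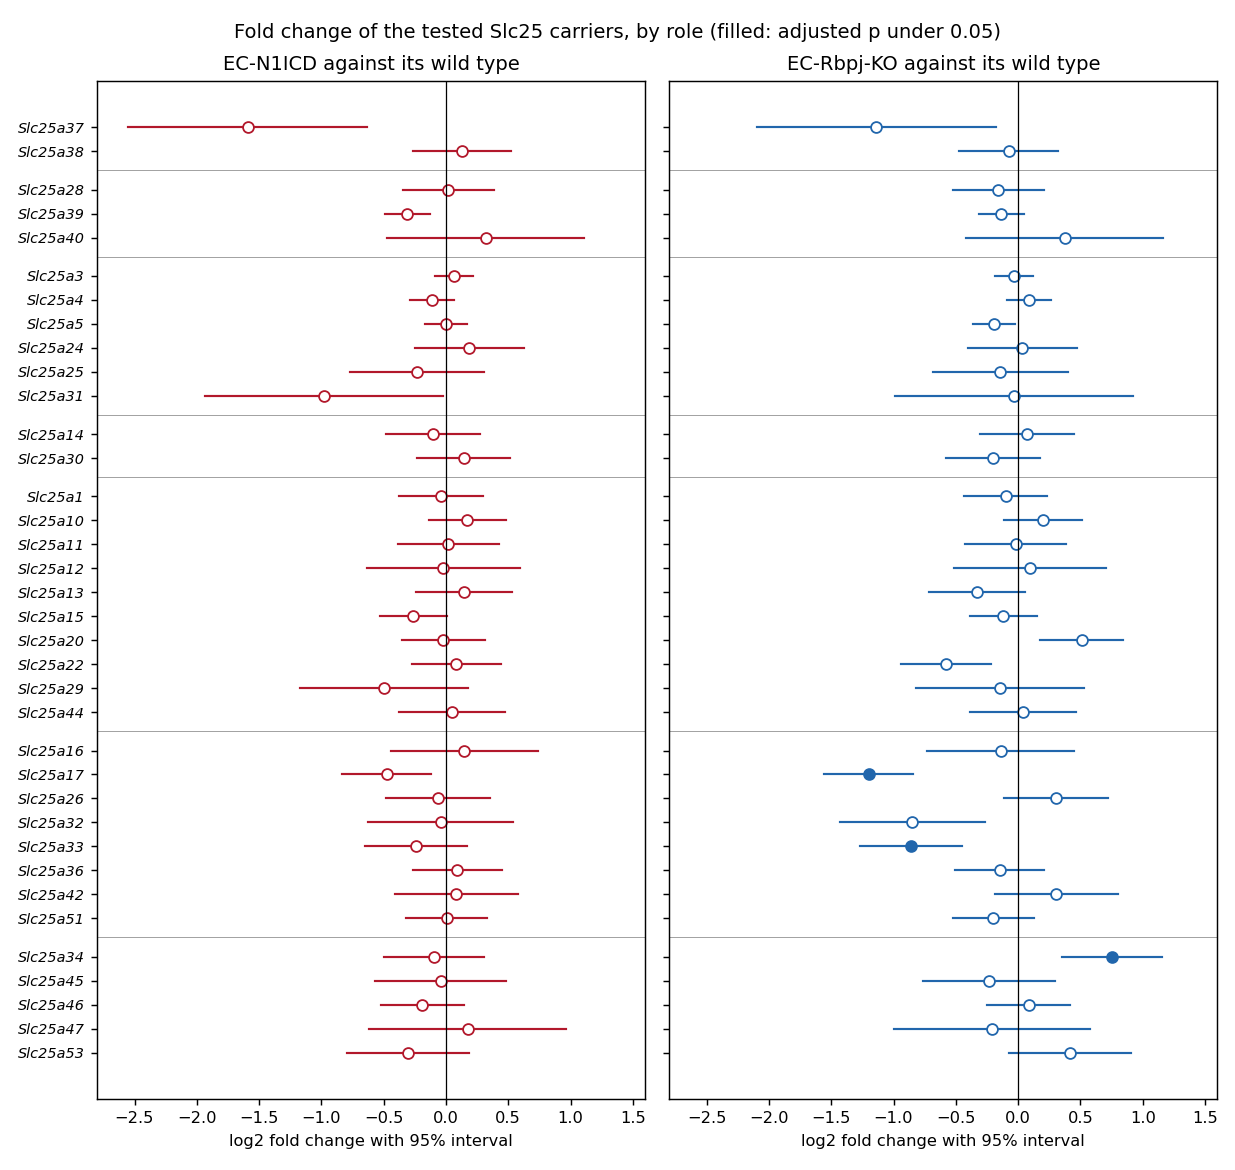
Log2 fold change (x axis) of the 36 tested carriers, grouped by role, in EC-N1ICD (left) and EC-Rbpj-KO (right) against their wild types; lines are 95% intervals and filled points passed an adjusted p under 0.05. Slc25a37 lies farthest left in EC-N1ICD, and Slc25a17, Slc25a33 and Slc25a34 are the filled points in EC-Rbpj-KO.

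Carriers of cofactors and nucleotides held both calls of lower signal in EC-Rbpj-KO. Of the 8 tested, 2 fell and 0 rose there, against 2.96% and 2% of all genes, with a median log2 fold change of -0.17. In EC-N1ICD 0 passed, against 0.596% of all genes, with a median of -0.02. Slc25a17, a peroxisomal carrier of coenzyme A, FAD and NAD, fell. Its signals were 337 and 358 in EC-Rbpj-KO, against 817 and 777 for wild type (log2 fold change -1.20, SE 0.16, 95% interval -1.55 to -0.84, adjusted p 0.0025). In EC-N1ICD it read 429 and 461, against 575 and 664 for wild type, separate as well but short of the threshold (-0.47, SE 0.16, limma p 0.014, adjusted p 0.25). The contrast of the 2 fold changes had an adjusted p of 0.29. A second, dim probe set of Slc25a17 read 32 and 31 in EC-Rbpj-KO, against 27 and 19 for wild type. Its signals, 19 to 60 over the 8 arrays, lie around the array medians of 38 to 51. With both probe sets averaged the EC-Rbpj-KO value was -0.36 and did not pass (adjusted p 0.31).

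Slc25a33, which carries pyrimidine nucleotides for mitochondrial nucleic acid synthesis, also fell in EC-Rbpj-KO. It had 192 and 195, against 319 and 387 for wild type (log2 fold change -0.86, SE 0.19, adjusted p 0.024). In EC-N1ICD it had 203 and 227, against 260 and 248 for wild type (-0.24, adjusted p 0.69). The call was lost in 8 of 18 alternatives, among them the omission of any 1 of the 4 arrays of the set. Slc25a36, the other pyrimidine nucleotide carrier, overlapped with wild type in EC-Rbpj-KO, at 3650 and 2489, against 3337 and 3337 for wild type (-0.15, adjusted p 0.67). In EC-N1ICD its brightest probe set read 2919 and 2993, against 2670 and 2892 for wild type (0.09, adjusted p 0.90). Its dimmer probe sets were also separate and higher there (0.37 and 0.36). Slc25a32, a carrier of folate and FAD, read 237 and 159 in EC-Rbpj-KO, against 301 and 406 for wild type. The log2 fold change was -0.85 (SE 0.27, limma p 0.0081, adjusted p 0.095), and a dimmer probe set of the gene gave -0.56 with separate groups. The others of the role group, Slc25a16 and Slc25a42 (linked to coenzyme A), Slc25a26 (S-adenosylmethionine) and Slc25a51 (NAD), lay between -0.06 and 0.15 in EC-N1ICD yolk sacs and between -0.20 and 0.31 in EC-Rbpj-KO.

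Slc25a34, whose substrate was not assigned here, was the only carrier that rose. Its signals were 528 and 512 in EC-Rbpj-KO, against 285 and 333 for wild type (log2 fold change 0.76, SE 0.18, adjusted p 0.039). In EC-N1ICD it read 225 and 277, against 263 and 270 for wild type (-0.09, adjusted p 0.91). Of 19 alternatives, 11 lost the EC-Rbpj-KO call, among them the omission of any 1 of the 4 arrays of the set or of either EC-N1ICD array. The contrast of the models had the smallest p among the carriers (limma p 0.0069) but an adjusted p of 0.27.

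**Figure D3:**
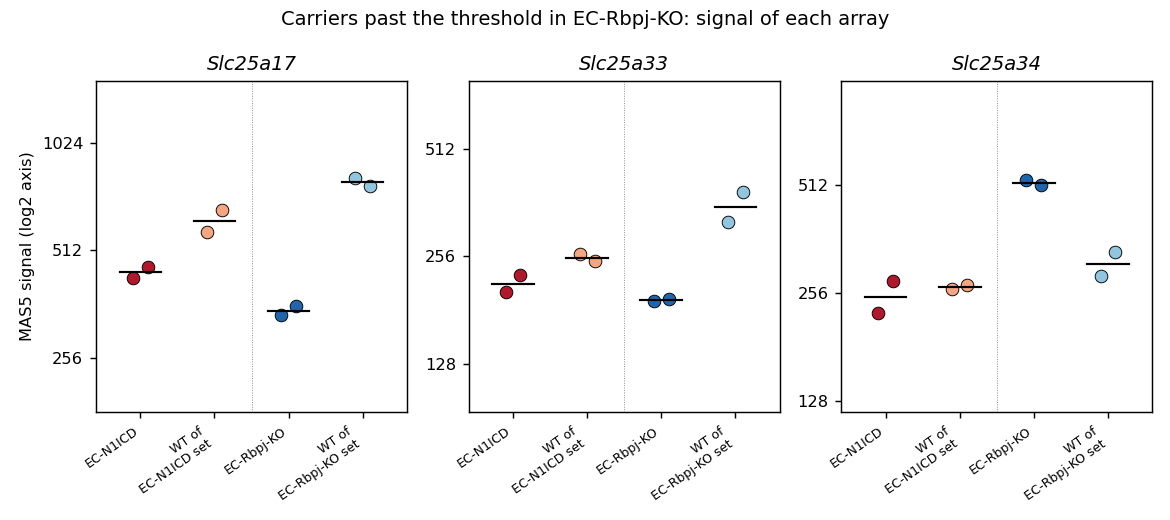
MAS5 signal (log2 axis, each panel spanning its own range) of the 3 carriers past the threshold in EC-Rbpj-KO on each of the 8 arrays, with mutants left of their wild types; points are arrays and bars are geometric means. Slc25a17 and Slc25a33 lay below both wild type arrays and Slc25a34 above them on each EC-Rbpj-KO array.

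Carriers of organic and amino acids had no call among 10 tested, with medians of -0.001 in EC-N1ICD yolk sacs and -0.06 in EC-Rbpj-KO. Slc25a20, which takes acylcarnitines into mitochondria for fatty acid oxidation, had the second highest fold change in EC-Rbpj-KO. It read 2808 and 2423 there, against 1762 and 1906 for wild type (0.51, SE 0.15, limma p 0.0062, adjusted p 0.083). A dimmer probe set of Slc25a20 read 970 and 918 in EC-Rbpj-KO, against 752 and 891 for wild type, a smaller difference (0.21). In EC-N1ICD the brighter probe set overlapped with wild type, at 1614 and 1324, against 1561 and 1413 for wild type. Slc25a22, a glutamate carrier, read 891 and 913 in EC-Rbpj-KO, against 1314 and 1376 for wild type (-0.58, SE 0.16, limma p 0.0047, adjusted p 0.071). It overlapped in EC-N1ICD (0.08, adjusted p 0.91).

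The dim gene Slc25a29, a carrier of basic amino acids, had 65 and 102 in EC-N1ICD, against 97 and 136 for wild type (-0.50, adjusted p 0.59). Its probe sets disagreed. A dimmer one read 57 and 36 in EC-N1ICD, against 19 and 17 for wild type (1.33), and the other 3 lay between -0.09 and 0.00, so no direction is given for this gene. Slc25a10, the dicarboxylate carrier, and Slc25a13, an aspartate-glutamate carrier, had log2 fold changes of 0.17 and 0.15 in EC-N1ICD yolk sacs and of 0.20 and -0.33 in EC-Rbpj-KO. The remaining 5 were the citrate carrier Slc25a1, the oxoglutarate-malate carrier Slc25a11, the aspartate-glutamate carrier Slc25a12, the ornithine carrier Slc25a15 and the branched-chain amino acid carrier Slc25a44. They lay between -0.26 and 0.05 in EC-N1ICD yolk sacs and between -0.12 and 0.10 in EC-Rbpj-KO. The value of -0.26 was that of Slc25a15, whose dimmer probe set went the other way. That probe set read 118 and 122 in EC-N1ICD, against 92 and 109 for wild type (0.26).

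The carriers that supply ATP had no call among 6 tested, with medians of -0.06 and -0.03. Slc25a3, the phosphate carrier, and the adenine nucleotide translocases Slc25a4 and Slc25a5, which exchange ADP for ATP, had log2 fold changes between -0.11 and 0.06 in EC-N1ICD. In EC-Rbpj-KO these were -0.03, 0.09 and -0.19. The intervals of these bright genes were narrow, as for Slc25a3 with -0.09 to 0.22 in EC-N1ICD yolk sacs and -0.18 to 0.12 in EC-Rbpj-KO. Slc25a5 was separate in EC-Rbpj-KO, at 12642 and 12281, against 13525 and 14986 for wild type (adjusted p 0.19). Slc25a31, the translocase of germ cells, had the second lowest fold change in EC-N1ICD (-0.98, SE 0.44, adjusted p 0.40) on signals of 24 and 52, against 63 and 77 for wild type, close to the array medians. Slc25a24, a calcium-regulated ATP-Mg/phosphate carrier, had 719 and 781 in EC-N1ICD, against 627 and 690 for wild type (0.19, adjusted p 0.81). In EC-Rbpj-KO it overlapped with wild type (0.03), and its relative Slc25a25 had values of -0.23 and -0.14 in the 2 models.

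The uncoupling protein relatives Slc25a14 and Slc25a30 had values of -0.11 and 0.14 in EC-N1ICD yolk sacs and of 0.07 and -0.20 in EC-Rbpj-KO, with no call. Slc25a53 had values of opposite sign in the models. It read 143 and 129 in EC-N1ICD, against 195 and 144 for wild type (-0.30, adjusted p 0.67), and 206 and 221 in EC-Rbpj-KO yolk sacs, against 175 and 146 for wild type (0.42, adjusted p 0.32). The contrast had a limma p of 0.042 and an adjusted p of 0.44. Slc25a45 and Slc25a46, the second an outer membrane protein that shapes mitochondria, had values of -0.04 and -0.19 in EC-N1ICD yolk sacs and of -0.23 and 0.09 in EC-Rbpj-KO. The dim gene Slc25a47 read 113 and 81 in EC-N1ICD, against 122 and 59 for wild type (0.17), and 58 and 50 in EC-Rbpj-KO yolk sacs, against 58 and 67 for wild type (-0.21). The 8 carriers below the filter, Slc25a2, Slc25a18, Slc25a23, Slc25a27, Slc25a35, Slc25a41, Slc25a48 and Slc25a54, had signals of 10 to 87 over all arrays and were not tested.

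Genes that work beside these carriers were described from lists. Of the 8 tested heme synthesis enzymes (9 listed) none passed in either model. Their median log2 fold change was -0.55 in EC-N1ICD, with 5 of 8 lower at an unadjusted limma p under 0.05 (5.47% of all genes), and -0.15 in EC-Rbpj-KO, with 2 of 8 (11.6% of all genes). Alas2, the erythroid enzyme that uses the glycine brought in by SLC25A38, read 409 and 1694 in EC-N1ICD, against 2402 and 2815 for wild type (-1.64, SE 0.53, adjusted p 0.21). In EC-Rbpj-KO it read 382 and 857, against 1053 and 764 for wild type, with overlapping groups (-0.65, adjusted p 0.54). Fech, the ferrochelatase that uses the imported iron, had 2487 and 3648 in EC-N1ICD, against 4241 and 4079 for wild type (-0.47, adjusted p 0.24), and 3791 and 4266 in EC-Rbpj-KO yolk sacs, against 5201 and 5221 for wild type (-0.37, adjusted p 0.22). Cpox, the coproporphyrinogen oxidase, had -0.81 (adjusted p 0.15) and -0.74 (adjusted p 0.079). All 8 enzymes had negative values in EC-N1ICD. In EC-Rbpj-KO 5 were negative and 3 positive, namely Alad (0.25), Ppox (0.25) and Urod (0.04), each with overlapping groups.

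The 15 tested of 19 listed partners of mitochondrial iron and heme handling, among them the iron-sulfur cluster genes, had no call and medians of -0.05 and -0.16. The 30 tested of 32 listed respiratory chain and housekeeping genes of mitochondria had none either, with medians of -0.01 and -0.06. Of the relatives named otherwise, Mtch2, an outer membrane protein of the carrier fold, fell in EC-Rbpj-KO. It read 3679 and 3444, against 4650 and 5349 for wild type (-0.49, SE 0.12, adjusted p 0.041). In EC-N1ICD its value was -0.30 (adjusted p 0.34).

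Lower signals of erythroid markers accompanied those of Slc25a37 in the EC-N1ICD set. Of 14 tested among 18 listed, 1 fell, 11 were lower at an unadjusted limma p under 0.05 (5.47% of all genes), and the median log2 fold change was -1.06. Their summed signal was 48899 and 83048 in EC-N1ICD, against 96149 and 100943 for wild type. In EC-Rbpj-KO 1 fell, 2 were lower at an unadjusted p under 0.05, a share near the 11.6% of all genes, and the median was -0.46, with summed signals of 54967 and 67272, against 72019 and 69591 for wild type. The member that fell in both was Tfrc, the transferrin receptor through which red cell precursors take up iron. Tfrc read 1121 and 2333 in EC-N1ICD, against 4425 and 5779 for wild type (-1.64, SE 0.30, adjusted p 0.034). It read 535 and 807 in EC-Rbpj-KO, against 2691 and 2470 for wild type (-1.97, SE 0.30, adjusted p 0.0038). Of the defining markers Hba-a1 lay at 15 to 27, below the array medians.

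Slc25a37 was lower than the median erythroid marker on each of the 4 mutant arrays. On EC-N1ICD replicates 1 and 2 it deviated by -2.48 and -0.70 from the wild type mean, whereas the marker median deviated by -1.71 and -0.38. On EC-Rbpj-KO replicates 1 and 2 it deviated by -1.42 and -0.85, whereas the marker median deviated by -0.80 and -0.01. On these arrays 2, 1, 3 and 1 of the 14 markers were at or below it. The median of the 34 other carriers stayed between -0.21 and 0.01 on these 4 arrays, and Slc25a38 between -0.12 and 0.27. The lowest of the 34 lay at -1.54, -0.42, -1.24 and -1.15 in the same order. Below Slc25a37 lay 2 carriers on EC-Rbpj-KO replicate 2 and 0 on each of the others. On EC-Rbpj-KO replicate 2 the marker median was near the wild type level. The 14 markers ran there from -1.68, the value of Tfrc, to 0.20. The part of the erythroid markers in the Slc25a37 values was not tested.

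**Figure D4:**
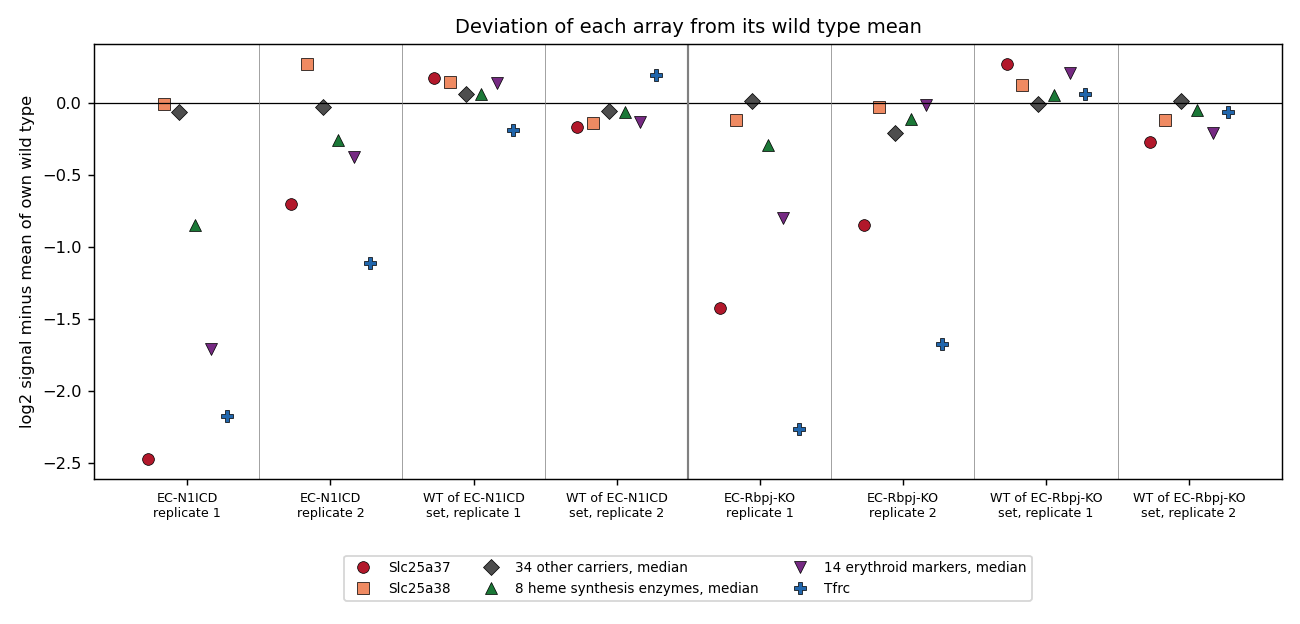
Log2 signal of each array minus the mean of its own wild type arrays (y axis) for Slc25a37, Slc25a38, Tfrc and the medians of 34 other carriers, 8 heme synthesis enzymes and 14 erythroid markers, with mutants left of their wild types. Slc25a37 and Tfrc lay below 0 on all 4 mutant arrays, and the marker median lay at -1.71, -0.38, -0.80 and -0.01 in the same order.

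Some markers of other cell types also passed the test. Of all tested genes, 0.376% rose and 0.22% fell in EC-N1ICD, and 2% rose and 2.96% fell in EC-Rbpj-KO. Of 4 smooth muscle markers 2 rose in EC-N1ICD (median 0.86, summed signal 19379 and 18208, against 9433 and 10772 for wild type), and 0 in EC-Rbpj-KO (median 0.20, 3677 and 4699, against 3684 and 3629 for wild type). Of 5 macrophage markers 1 rose in EC-N1ICD (median 0.75, 2154 and 1801, against 1686 and 1537 for wild type) and 3 rose in EC-Rbpj-KO (median 1.53, 4023 and 2690, against 1435 and 995 for wild type). Of 5 megakaryocyte markers 1 fell in EC-N1ICD (median -1.09, 858 and 1375, against 2311 and 3329 for wild type) and 0 in EC-Rbpj-KO (median 0.10, 1835 and 1251, against 1810 and 1569 for wild type). Of 7 endothelial markers 1 rose in EC-Rbpj-KO (median 0.34, 2743 and 1942, against 1524 and 1523 for wild type) and 0 in EC-N1ICD (median 0.12, 2833 and 2651, against 3236 and 2237 for wild type), with Pecam1 at 16 to 43 and not tested. Of 8 visceral endoderm markers 1 fell in EC-Rbpj-KO (median -0.10, 148557 and 158844, against 159147 and 171880 for wild type) and 0 in EC-N1ICD (median -0.01, 152643 and 148698, against 148393 and 151639 for wild type). The part of these shifts in the carrier values was not tested.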

How the data were processed

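RNA of E9.5 yolk sac was hybridized to 8 Affymetrix mouse arrays in 4 groups of 2. The deposited intensity values, 1 signal per probe set, were summarized by the authors with MAS5 (version and scaling target not given in the sources used here), are linear, and run from 7 to 36554. Samples were grouped by source name, title and genotype. Of 45101 probe sets, 34958 named 1 gene, 932 several and 9211 none, from the array's annotation at GEO, and only the first kind was used. One probe set that named Slc25a37 together with another gene was left out. Each gene was read from its brightest probe set by mean signal, and genes with a mean at or below the 40th percentile were not tested, which left 10913 with means of at least 68. The filter takes all 8 arrays, so a tested gene may be dim in 1 group.

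The model was limma 3.58.1 (R 4.3.3) on log2 signals (4 groups, eBayes with trend, 4 residual and 7.37 prior degrees of freedom), with two-sided p-values adjusted by Benjamini-Hochberg over all tested genes at a threshold of 0.05. "Rose" and "fell" are used for genes past it. The code was tested on simulated data. An exact permutation test of 2 arrays against 2 cannot go below 0.333 and was not used. The number of arrays limits the precision. Lists are described by counts and medians. The members and lists were chosen with earlier results of these data known. Values per array are given for the erythroid carriers, their paralogs, carriers past the threshold and the 3 with the largest rise and fall in each comparison. Slc25a5, Slc25a22, Slc25a32 and Slc25a36 were added after their values were seen, as were the wild type values of Slc25a12 and Slc25a44. Alternatives changed the added constant (16), filter, scaling, probe set choice, variance trend, arrays fitted, test and a term for female transcripts. Coordinates are given only with the RefSeq promoter sequences.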

Additional observations from a re-analysis of the deposited data

How the results depend on the processing

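The count of carriers past the threshold in EC-N1ICD, 0, became 1 with median centring (Slc25a37, log2 fold change -1.67, adjusted p 0.041) and 3 by the methods' t-test without adjustment (0 after Benjamini-Hochberg), and ran from 0 to 1 with single arrays left out. The count of 3 in EC-Rbpj-KO became 1 with no filter on low signals, with the own set fitted alone and with female transcripts as a term (estimated from the 2 EC-Rbpj-KO arrays alone), each time Slc25a17. It became 5 by the methods' t-test without adjustment and 0 after Benjamini-Hochberg, and ran from 1 to 4 with single arrays left out; it was 1, Slc25a17, without any 1 of the 4 arrays of that set, where the lone array of a group is assumed to vary like the others. None of the 16 alternatives tried gave a carrier past the threshold for the difference between the models. The cause of these moves was not tested. The erythroid minus other difference of medians in EC-Rbpj-KO was -0.0347 with Slc25a39 counted as erythroid. With single arrays left out it ran from -1.18 to -0.190 in EC-N1ICD and from -0.784 to -0.233 in EC-Rbpj-KO. Slc25a38, near 0 throughout, changed sign in EC-Rbpj-KO with quantile normalization (0.0474) and without WT of EC-Rbpj-KO set replicate 1 (0.0446), and in EC-N1ICD upon leaving out EC-N1ICD replicate 2 (-0.0120) or WT of EC-N1ICD set replicate 2 (-0.0153). With single arrays left out it ran from -0.0153 to 0.269 in EC-N1ICD, and from -0.197 to 0.0446 in EC-Rbpj-KO. Slc25a37 kept a negative fold change in both models under all 19 alternatives, but many of these could not have reversed it. The filters, probe set choice, variance trend, tests and omission of arrays of the other set leave its value unchanged. As both mutant arrays lay below both wild type arrays, leaving out 1 of them could not change the sign. Median centring moved the median of all genes by -0.08 for EC-N1ICD and by -0.07 for EC-Rbpj-KO. No paired analysis was done, because the replicate numbers link no mutant array to a wild type one. The first number of the sample name is shared by mutant replicate 2 and both wild type arrays of its set, but not by mutant replicate 1. Slc25a33 was not tested with the filter at the 60th percentile. Background limits the dim carriers.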

Other observations

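The wild types of the 2 sets, which differ in strain and in the set they were run in, had different signals for many carriers. Both arrays of the EC-Rbpj-KO set's wild type lay above both of the EC-N1ICD set's wild type for 23 of 36 tested carriers (63.9%, against 46.5% of all tested genes) and below for 4 (11.1%, against 23.4%), and 7 were at least 2-fold higher (19.4%, against 8.65% of all tested genes). Slc25a12, an aspartate-glutamate carrier, read 1127 and 1112 in the wild type of the EC-Rbpj-KO set, against 391 and 300 in that of the EC-N1ICD set, a ratio of 3.27. Slc25a44, the branched-chain amino acid carrier, read 758 and 766, against 274 and 245, a ratio of 2.94. Strain, set and wild type genotype cannot be told apart here, and these levels were not tested.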
